A study of Mus musculus with 8 samples.

Results

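The mechanistic target of rapamycin (mTOR) is a protein kinase that works in 2 complexes, and the 10 genes described here encode the kinase, its partner subunits and the regulators that sit just upstream of it. They are Mtor, Mlst8, Deptor, Rptor, Akt1s1, Rictor, Rheb, Tsc1, Tsc2 and Ddit4. They were chosen by name, through the Entrez gene IDs of the deposited tables, from 18631 listed genes. All 10 were found, and 9 of them were among the 10731 genes with a mean of at least 1 FPKM (fragments per kilobase of transcript and M (mega) mapped fragments) that were tested. Deptor was below that level.

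RNA was sequenced from mouse kidney epithelial cells of 2 lines. In the line named null(PN) both copies of Pkd1 are lost (Pkd1-/-), and in the line named pkd1(PH) 1 copy is lost (Pkd1+/-). Pkd1 encodes polycystin-1, the protein most often affected in dominant polycystic kidney disease. The 4 groups, with 2 libraries each, were null cells with THZ1, null cells with DMSO, heterozygous cells with THZ1 and heterozygous cells with DMSO. THZ1 is a covalent inhibitor of CDK7, a kinase of the general transcription machinery, and was given at 50 nM for 6 h. DMSO is its solvent. All groups grew with serum, insulin, transferrin, selenium, interferon gamma and the thyroid hormone T3, so the insulin that acts on this pathway was present in every library. Each genotype was 1 line, so that loss of Pkd1 and any other difference between the lines cannot be told apart. The labels do not say that replicates were separate cultures, and the p-values measure the spread between these libraries, which may be technical.

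As background, mTOR complex 1 (mTORC1) joins the kinase to the substrate-binding subunit raptor (Rptor) and responds to amino acids, growth factors and energy by switching on protein synthesis and switching off autophagy. mTOR complex 2 (mTORC2) holds rictor (Rictor) in place of raptor and phosphorylates Akt and SGK kinases. The small GTPase Rheb switches mTORC1 on at the lysosome, and the TSC complex of hamartin (Tsc1) and tuberin (Tsc2) switches Rheb off. High mTORC1 activity is a known feature of the cells that line cysts in polycystic kidneys. The values below are RNA levels and say nothing of kinase activity. FPKM are relative to the mapped fragments of each library and do not give the amount of RNA per cell. A gene said to be higher or lower, or to have risen or fallen, is so relative to the rest of its library.

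The lines matched their labels in the level of Pkd1 (gene ID 18763), which had 1.22 and 1.21 FPKM in null THZ1 libraries, 1.69 and 1.32 FPKM in null DMSO libraries, 3.71 and 4.2 FPKM in heterozygous THZ1 libraries, and 4.58 and 5.30 FPKM in heterozygous DMSO libraries. Some Pkd1 RNA thus remained in null cells. The depth, estimated from the steps of low FPKM values, was 17.6 to 18.3 M fragments per library. Of 9 kidney epithelial markers 7 averaged at least 1 FPKM, Krt8, Krt18, Pax8 and Cdh16 among them, but the defining epithelial adhesion genes Epcam and Cdh1 stayed at or below 0.24 and 0.42 FPKM in every library. The summed epithelial markers had 1098 to 1100 FPKM in null THZ1, 1144 to 1163 in null DMSO, 1292 to 1331 in heterozygous THZ1 and 1239 to 1349 in heterozygous DMSO libraries. Single epithelial markers went opposite ways between null and heterozygous DMSO cells, with Krt7 (0.46) and Cdh16 (0.53) higher in null cells and Krt8 (-0.81), Krt18 (-0.87), Krt19 (-1.22), Pax2 (-0.53) and Pax8 (-0.21) lower on the log2 scale. The 8 fibroblast markers, of which 2 (Col1a1 and Postn) averaged at least 1 FPKM, summed to 39.9 to 43.0 FPKM in null THZ1, 33.7 in null DMSO, 15.3 to 15.4 in heterozygous THZ1 and 15.5 to 16.6 in heterozygous DMSO libraries. The 5 endothelial markers each averaged under 1 FPKM and summed to at most 0.23 FPKM. Among the 5 leukocyte markers only Cd68 averaged 1 FPKM or more, and Cd3e was listed at 0 throughout. They summed to 3.97 to 4.86 FPKM in null THZ1, 1.78 to 2.17 in null DMSO, 2.92 to 3.36 in heterozygous THZ1 and 2.93 to 3.11 in heterozygous DMSO libraries. The part of these marker levels in the results below was not tested, and in bulk RNA fewer cells of a kind and less RNA per cell cannot be told apart.

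In every group Rheb had the highest level of the 10 genes, followed by Ddit4 and Akt1s1, and Deptor had the lowest. With DMSO, Rheb averaged 89.6 ± 0.113 FPKM in null cells and 82.8 ± 0.509 FPKM in heterozygous cells (SD, n = 2 each). FPKM are scaled by transcript length, so levels can be set side by side between genes, but only roughly. The length used for each gene was not given. Annotated transcripts of Akt1s1 are 333 to 1757 bp long and those of Deptor 3300 to 8547 bp, so the order may depend on that length. The middle of the order differed between groups. In heterozygous DMSO cells Rptor and Tsc2 lay next to each other, with libraries that did not differ beyond their spread (14.64 and 14.34 against 14.49 and 14.32 FPKM), and Mtor, Rictor, Mlst8 and Tsc1 followed at 5.31 to 10.96 FPKM. In null DMSO cells Tsc2 came before Mtor and Rptor, and Mtor at 11.4 ± 0.453 FPKM lay close to Rptor at 10.6 ± 0.502 FPKM (SD, n = 2 each). In null THZ1 cells Rictor and Rptor stood above Mtor, and Mlst8 was at 2.12 ± 0.0707 FPKM (SD, n = 2), the lowest of the 9 tested genes.

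**Figure D1:**
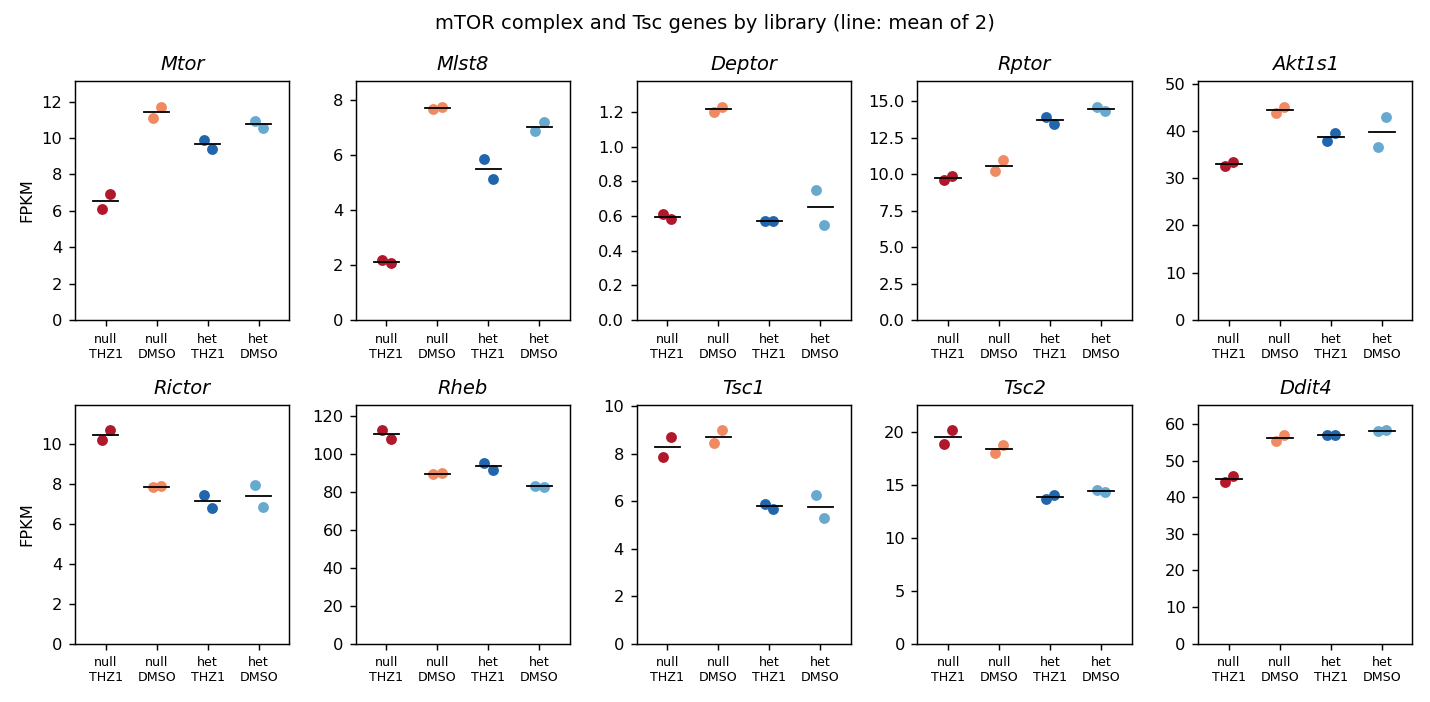
FPKM of the 10 genes in each of the 8 libraries, with a panel and an axis from 0 for each gene. Points are libraries and lines are group means (n = 2); Mlst8 sits at 2.07 and 2.17 FPKM in null THZ1 libraries and at 5.14 FPKM or more in every other library.

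In null cells the RNA of the kinase and its partner Mlst8 was lower with THZ1 than with DMSO, and that of Rictor and Rheb was higher. The log2 difference between THZ1 and DMSO was -1.48 ± 0.08 for Mlst8, -0.72 ± 0.07 for Mtor, -0.42 ± 0.06 for Akt1s1 and -0.32 ± 0.04 for Ddit4, against 0.37 ± 0.08 for Rictor and 0.30 ± 0.04 for Rheb (SE, 2 libraries per group). These 6 genes passed the test (limma on log2(FPKM + 1), adjusted p below 0.05 over all tested genes), 2 higher and 4 lower. Of all tested genes 75.7% passed, 24.6% higher and 51.1% lower, so a count of 6 in 9 is no more than the background. Rptor, Tsc1 and Tsc2 did not pass. The median log2 difference was -0.11 over the 9 members and -0.17 over all tested genes. Scaling moved that centre: with median-of-ratios scaling the median of all tested genes was 0.04, and the called genes were 4488 higher and 3837 lower, against 2645 and 5479 without scaling. The members called were then 3 higher and 3 lower. Relative to the unscaled median, Mlst8 was at -1.31, Mtor at -0.55, Akt1s1 at -0.24, Ddit4 at -0.14, Rheb at 0.47 and Rictor at 0.54.

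In heterozygous cells the RNA of 2 of the 9 genes differed at the same dose, Mlst8 lower (log2 -0.31 ± 0.08) and Rheb higher (0.17 ± 0.04), where 22.4% of all tested genes passed, 12.2% higher and 10.3% lower. The median log2 difference was -0.05 over the members and 0.01 over all tested genes. With upper-quartile scaling Mlst8 alone of the members passed, and the called genes were 427 higher and 881 lower, against 1306 and 1100 without scaling (754 and 1492 with library totals). The direct test of the difference between the lines' responses (the interaction) passed for Mlst8 (-1.17), Mtor (-0.58), Akt1s1 (-0.38) and Ddit4 (-0.29), each with a more negative response in null cells, and for Rictor (0.41), with a more positive one. These are 5 of 9 members, where 60.2% of all tested genes passed, 15.1% with a more positive and 45.1% with a more negative response. The split turned with median-of-ratios scaling, to 3539 more positive and 3064 more negative responses over all genes and to 3 and 2 among the members, and it was 3 and 2 among the members with upper-quartile scaling as well (2365 and 3223 over all genes).

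Without the drug, null cells had more Tsc1, Tsc2, Akt1s1 and Rheb RNA and less Rptor RNA than heterozygous cells. The log2 difference was 0.52 ± 0.08 for Tsc1, 0.33 ± 0.06 for Tsc2, 0.16 ± 0.06 for Akt1s1, 0.11 ± 0.04 for Rheb and -0.42 ± 0.06 for Rptor (SE, 2 libraries per group). These 5 of 9 members passed, 4 higher and 1 lower, where 70% of all tested genes passed, 29% higher and 41% lower. The median was 0.11 over the members and -0.07 over all tested genes. Without heterozygous DMSO replicate 1, null DMSO replicate 1 or null DMSO replicate 2, the count was 3 in each case, since Akt1s1 and Rheb no longer passed. With upper-quartile scaling 7 members were higher and 1 lower, and the called genes were 4093 higher and 2714 lower, against 3110 and 4398 without scaling. With THZ1, all 9 tested members differed between the lines, where 83.2% of all tested genes passed, 25.1% higher and 58.1% lower. In that comparison 4 were higher in null cells (Rictor, Tsc2, Tsc1 and Rheb) and 5 lower (Mlst8, Mtor, Rptor, Ddit4 and Akt1s1). With median-of-ratios scaling 7 members passed, 4 higher and 3 lower, and the called genes were 4329 higher and 4422 lower, against 2689 and 6240 without scaling. With upper-quartile scaling 6 passed, 4 higher and 2 lower, beside 4184 and 4160 of all genes.

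**Figure D2:**
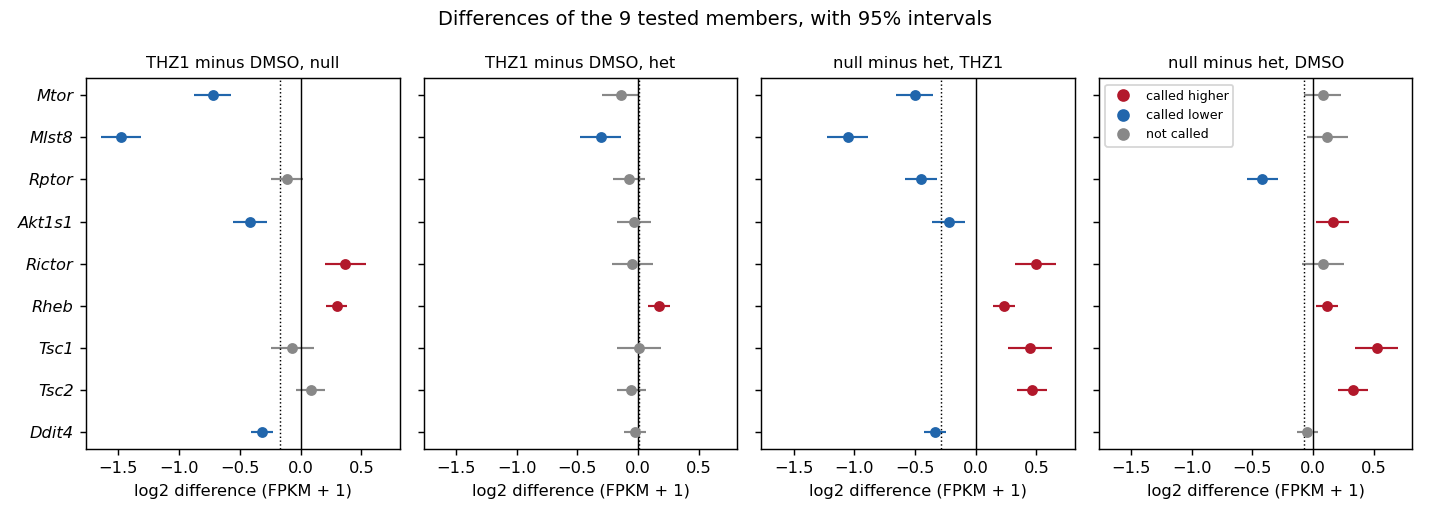
Difference in log2(FPKM + 1) of the 9 tested genes in 4 comparisons, 1 panel each, with 95% intervals from limma; red points were called higher, blue lower and grey not called, and the dotted line is the median of all tested genes. Mlst8 with THZ1 in null cells is the farthest from 0, at -1.48.

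Among the 9 tested members Mlst8 and Mtor had the largest falls with THZ1 in null cells on the log2(FPKM + 1) scale, and Rictor and Rheb rose there. As a ratio of means Deptor, which was below the filter, was at 0.490 and Mtor at 0.571. Their promoter windows, 250 bases before to 50 after the annotated start, are shown so that the starts of genes that moved in opposite directions can be compared. The sequences are from RefSeq for GRCm38.p6, the assembly of the submitters' mm10, read 5′ to 3′ on the gene's own strand. A window was found for 9 of the 10 genes (not Deptor). Capitals mark the motifs searched on either strand: CACGTG (the E-box read by MYC and TFEB), ACGTG (the core of the hypoxia response element, which lies inside every CACGTG), TGATGNAA (the core of the ATF4 element), GGGCGG (the GC box read by Sp1), TATAAA and CCAAT.
Mlst8, chr17:24479029-24479328, minus strand: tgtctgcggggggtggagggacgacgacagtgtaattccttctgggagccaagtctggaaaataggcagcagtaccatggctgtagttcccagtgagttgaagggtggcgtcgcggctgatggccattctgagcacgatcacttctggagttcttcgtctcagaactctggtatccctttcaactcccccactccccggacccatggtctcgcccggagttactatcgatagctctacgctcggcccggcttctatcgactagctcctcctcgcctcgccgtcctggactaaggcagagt
Mtor, chr4:148448332-148448631, plus strand: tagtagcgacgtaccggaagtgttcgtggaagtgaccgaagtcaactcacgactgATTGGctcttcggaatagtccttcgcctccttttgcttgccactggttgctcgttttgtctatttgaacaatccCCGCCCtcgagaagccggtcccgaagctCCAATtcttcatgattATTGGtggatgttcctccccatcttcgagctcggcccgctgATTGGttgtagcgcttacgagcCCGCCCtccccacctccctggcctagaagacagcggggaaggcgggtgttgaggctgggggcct
Rictor, chr15:6708131-6708430, plus strand: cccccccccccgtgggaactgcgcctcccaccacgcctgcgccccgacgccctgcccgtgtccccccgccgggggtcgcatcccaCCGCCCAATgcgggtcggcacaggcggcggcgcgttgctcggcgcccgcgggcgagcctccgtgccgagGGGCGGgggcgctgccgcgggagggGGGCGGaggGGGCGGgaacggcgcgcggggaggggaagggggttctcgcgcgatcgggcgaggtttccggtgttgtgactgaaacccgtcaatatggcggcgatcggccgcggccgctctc
Rheb, chr5:24842312-24842611, minus strand: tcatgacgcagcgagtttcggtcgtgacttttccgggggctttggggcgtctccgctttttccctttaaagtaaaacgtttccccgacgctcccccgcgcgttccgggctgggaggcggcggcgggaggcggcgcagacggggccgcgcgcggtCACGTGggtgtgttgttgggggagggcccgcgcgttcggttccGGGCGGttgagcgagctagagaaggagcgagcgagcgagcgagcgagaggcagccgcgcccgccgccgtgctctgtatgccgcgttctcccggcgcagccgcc
None of the searched motifs was in the Mlst8 window. The Mtor window held CCAAT at 4 places and GGGCGG at 2, the Rictor window GGGCGG at 4 places and CCAAT at 1, and the Rheb window 1 CACGTG and 1 GGGCGG. Among the 9 windows GGGCGG was in 5 (Akt1s1, Ddit4, Mtor, Rheb and Rictor), CCAAT in 3 (Ddit4, Mtor and Rictor) and ACGTG in 3 (Ddit4, Rheb and Rptor). Of 32851 RefSeq windows 35.7% held GGGCGG, 37.4% CCAAT, 19.6% ACGTG, 7.15% CACGTG, 13.6% TATAAA and 3.97% TGATGNAA, and the last 2 were in none of the members' windows. The median GC content was 65.0% for the members' windows and 52.7% for all. With THZ1 in null cells, without scaling, Mtor, Akt1s1 and Ddit4 fell and Rictor and Rheb rose, and the windows of all of these held GC boxes. The window of Mlst8, which had the largest fall of the tested members, held none. A match is a description of letters only.

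Mtor (gene ID 56717, chr4:148448582-148557685) encodes the kinase of both complexes. It had 6.12 and 6.92 FPKM in null THZ1 libraries, 11.09 and 11.73 FPKM in null DMSO libraries, 9.89 and 9.41 FPKM in heterozygous THZ1 libraries, and 10.96 and 10.57 FPKM in heterozygous DMSO libraries. The groups did not overlap, and the null THZ1 libraries lay far below the other 6, which spanned 9.41 to 11.73 FPKM. The THZ1 response was -0.72 in null cells (95% interval -0.88 to -0.57, limma adjusted p = 1.01e-06) and -0.14 in heterozygous cells (-0.30 to 0.01, adjusted p = 0.16), and the interaction was -0.58 (adjusted p = 0.000321). Under DMSO the lines differed by 0.08 (-0.08 to 0.23, adjusted p = 0.347). Angptl7 lies within the span of Mtor and had 3.05 to 9.71 FPKM, and the handling of strand is not given in the sources used here, so reads from the shared stretch cannot be assigned with certainty.

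Mlst8 (gene ID 56716, chr17:24473550-24479114) encodes the beta-propeller subunit that binds the kinase domain in both complexes. It had 2.17 and 2.07 FPKM in null THZ1 libraries, against 7.65 and 7.75 FPKM in null DMSO libraries, a ratio of means of 0.275. In heterozygous cells it had 5.84 and 5.14 FPKM with THZ1, against 6.85 and 7.20 FPKM with DMSO, a ratio of 0.781. The groups did not overlap in either line, and the null THZ1 libraries were the lowest. The fall in null cells (log2 -1.48, 95% interval -1.65 to -1.31, limma adjusted p = 4.74e-09) was deeper than that in heterozygous cells (-0.31, -0.48 to -0.14, adjusted p = 0.0149), with an interaction of -1.17 (adjusted p = 2.95e-06). The smaller fall no longer passed without heterozygous DMSO replicate 2 (-0.28, adjusted p = 0.067), without heterozygous THZ1 replicate 2 (-0.23, adjusted p = 0.155) or without the filter on low values (adjusted p = 0.0561). Under DMSO the lines differed by 0.12 (-0.05 to 0.29, adjusted p = 0.195). At the estimated depth the lowest library held about 114 Mlst8 fragments, for a counting error of 9.4%. Bricd5, whose span overlaps Mlst8 by 1922 bp, had at most 0.43 FPKM in any library.

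Deptor (gene ID 97998, chromosome 15) encodes an inhibitor that binds mTOR in both complexes. It had 0.61 and 0.58 FPKM in null THZ1 libraries, 1.2 and 1.23 FPKM in null DMSO libraries, 0.57 and 0.57 FPKM in heterozygous THZ1 libraries, and 0.75 and 0.55 FPKM in heterozygous DMSO libraries. Null DMSO was thus the only group above 1 FPKM. With no filter on low values, over 17312 genes, the log2 difference between null and heterozygous DMSO cells was 0.43 ± 0.06 (SE, limma adjusted p = 0.00168, where 46.4% of genes passed). The THZ1 response in null cells was -0.47 (adjusted p = 0.000924, where 49.6% of genes passed). That in heterozygous cells was -0.07 (adjusted p = 0.593). The interaction was -0.40 (limma adjusted p = 0.0139, where 6116 of the 17312 genes passed). Under THZ1 the lines differed by 0.02 (adjusted p = 0.819). The lowest library held about 33 fragments, for a counting error of 17.3%, and differences on the log2(FPKM + 1) scale understate ratios at such levels.

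Rptor (gene ID 74370, chromosome 11) encodes raptor, the subunit that defines mTORC1 and recruits its substrates. It had 9.60 and 9.89 FPKM in null THZ1 libraries, 10.24 and 10.95 FPKM in null DMSO libraries, 13.95 and 13.43 FPKM in heterozygous THZ1 libraries, and 14.64 and 14.34 FPKM in heterozygous DMSO libraries. The libraries parted by line, with all 4 null libraries below all 4 heterozygous ones. Null cells were lower, with a log2 difference of -0.42 under DMSO (95% interval -0.55 to -0.29, limma adjusted p = 4.11e-05) and -0.45 under THZ1 (-0.58 to -0.32, adjusted p = 1.23e-05). The difference under THZ1 shrank to -0.16 with upper-quartile scaling (adjusted p = 0.091). The THZ1 responses were -0.11 in null cells (-0.24 to 0.02) and -0.08 in heterozygous cells (-0.21 to 0.05), neither of which passed. The response in null cells turned to 0.12 with median-of-ratios scaling and passed at -0.19 with library totals (adjusted p = 0.0187). The noncoding RNA gene Rptoros overlaps the span of Rptor by 13555 bp and is not among the listed genes. The handling of strand is not given, so reads from that stretch cannot be assigned with certainty.

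Akt1s1 (gene ID 67605, chromosome 7) encodes PRAS40, an inhibitor of mTORC1 that is itself a substrate of Akt. It had 32.67 and 33.35 FPKM in null THZ1 libraries, 43.75 and 45.12 FPKM in null DMSO libraries, 37.91 and 39.50 FPKM in heterozygous THZ1 libraries, and 36.61 and 42.99 FPKM in heterozygous DMSO libraries. The null THZ1 libraries were the lowest, and the heterozygous DMSO libraries were spread wider than those of any other group. The response in null cells was -0.42 (95% interval -0.56 to -0.28, limma adjusted p = 5.44e-05). Median-of-ratios scaling brought it to -0.18 (adjusted p = 0.0288). In heterozygous cells it was -0.04 (-0.17 to 0.10, adjusted p = 0.724). The interaction of -0.38 (adjusted p = 0.00274) did not pass with median-of-ratios (-0.14, adjusted p = 0.206) or upper-quartile scaling (-0.23, adjusted p = 0.0784). The difference between the lines under DMSO, 0.16 (adjusted p = 0.0391), was 0.05 without heterozygous DMSO replicate 1 (adjusted p = 0.463). Under THZ1 null cells were lower (-0.22, adjusted p = 0.00543), but this turned to 0.08 with median-of-ratios and 0.09 with upper-quartile scaling.

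Rictor (gene ID 78757, chromosome 15) encodes the subunit that defines mTORC2. It had 10.20 and 10.67 FPKM in null THZ1 libraries, 7.83 and 7.89 FPKM in null DMSO libraries, 7.46 and 6.78 FPKM in heterozygous THZ1 libraries, and 7.96 and 6.84 FPKM in heterozygous DMSO libraries. The null THZ1 libraries lay above all others, whose ranges were close to each other. The response in null cells was 0.37 (95% interval 0.20 to 0.54, limma adjusted p = 0.000845), and it was 0.59 with median-of-ratios scaling. In heterozygous cells it was -0.05 (-0.22 to 0.12, adjusted p = 0.699). The interaction of 0.41 (adjusted p = 0.00597) missed the threshold, at 0.38 and an adjusted p of 0.0558, when null DMSO replicate 1 and null THZ1 replicate 2 were left out together. Those libraries had more genes at 0.01 to 0.2 FPKM than the others (3378 and 3129, against 2230 to 2586), and this alternative was chosen after seeing the data. Under DMSO the lines differed by 0.08 (-0.09 to 0.25, adjusted p = 0.373).

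The order of Rictor and Rptor, each of which marks 1 of the complexes, differed between groups. Rictor over Rptor, as a ratio of FPKM within a library, was 1.06 and 1.08 in null THZ1 libraries, 0.765 and 0.721 in null DMSO libraries, 0.535 and 0.505 in heterozygous THZ1 libraries, and 0.544 and 0.477 in heterozygous DMSO libraries. The null THZ1 libraries were the only ones above 1, and the heterozygous groups overlapped. Mtor over Rptor was 0.638 and 0.700 in null THZ1, 1.08 and 1.07 in null DMSO, 0.709 and 0.701 in heterozygous THZ1, and 0.749 and 0.737 in heterozygous DMSO libraries. Here the null DMSO libraries stood above the rest. A ratio within a library does not depend on how libraries are scaled to each other. These ratios combine genes whose tests are given in the paragraphs on each, and they were not tested again. The gene overlaps named there for Mtor and Rptor apply to these ratios as well.

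**Figure D3:**
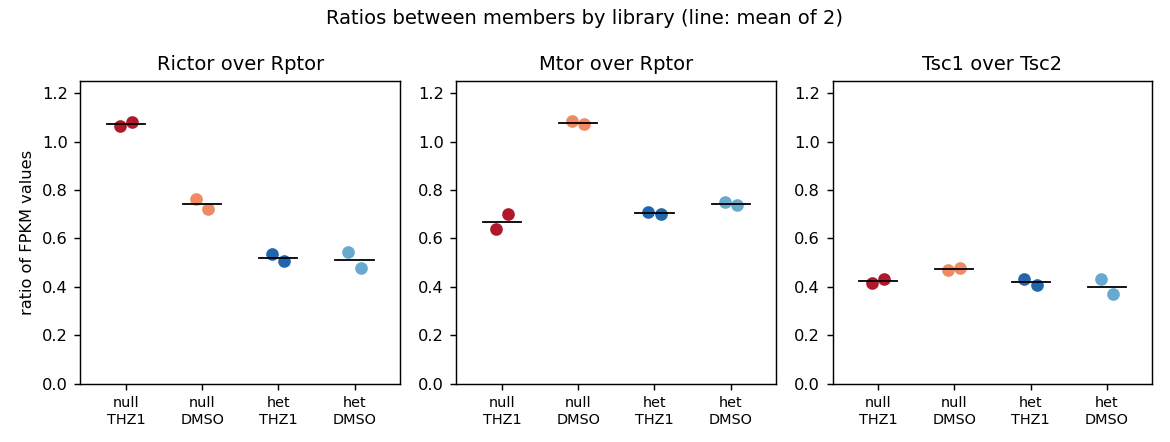
FPKM ratios within each library for Rictor over Rptor, Mtor over Rptor and Tsc1 over Tsc2, by group; points are libraries and lines are means of 2. Rictor over Rptor is 1.06 and 1.08 in null THZ1 libraries and at most 0.765 in the others.

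Rheb (gene ID 19744, chromosome 5) encodes the GTPase that activates mTORC1. It had 112.39 and 108.02 FPKM in null THZ1 libraries, 89.53 and 89.69 FPKM in null DMSO libraries, 95.40 and 91.63 FPKM in heterozygous THZ1 libraries, and 83.20 and 82.48 FPKM in heterozygous DMSO libraries. THZ1 libraries lay above DMSO libraries in each line. The response was 0.30 in null cells (95% interval 0.21 to 0.38, limma adjusted p = 2.24e-05), and 0.54 after median-of-ratios scaling. It was 0.17 in heterozygous cells (0.08 to 0.26, adjusted p = 0.0109), where it did not pass without heterozygous THZ1 replicate 1 (adjusted p = 0.115) or with upper-quartile scaling (adjusted p = 0.166). The interaction was 0.12 (adjusted p = 0.0821), and it passed at 0.37 with median-of-ratios (adjusted p = 0.000471) and at 0.28 with upper-quartile scaling (adjusted p = 0.0128). Under DMSO null cells were higher by 0.11 (adjusted p = 0.0256). That difference kept its size, at 0.11 to 0.12, but did not pass without either heterozygous DMSO replicate or either null DMSO replicate, where adjusted p was 0.0512 to 0.0806.

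Tsc1 (gene ID 64930, chromosome 2) encodes hamartin, which stabilises tuberin. It had 7.84 and 8.68 FPKM in null THZ1 libraries, 8.43 and 8.98 FPKM in null DMSO libraries, 5.88 and 5.69 FPKM in heterozygous THZ1 libraries, and 6.24 and 5.31 FPKM in heterozygous DMSO libraries. The lines did not overlap, while THZ1 and DMSO libraries overlapped in each line. Null cells were higher by 0.52 under DMSO (95% interval 0.34 to 0.70, limma adjusted p = 9.03e-05) and by 0.45 under THZ1 (0.27 to 0.63, adjusted p = 0.000215). The THZ1 response was -0.07 in null cells (-0.25 to 0.11) and 0.01 in heterozygous cells (-0.17 to 0.18), and neither passed.

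Tsc2 (gene ID 22084, chr17:24595816-24632676) encodes tuberin, the GTPase-activating subunit that turns Rheb off. It had 18.83 and 20.11 FPKM in null THZ1 libraries, 17.93 and 18.73 FPKM in null DMSO libraries, 13.63 and 14.00 FPKM in heterozygous THZ1 libraries, and 14.49 and 14.32 FPKM in heterozygous DMSO libraries. As for Tsc1, every null library was above every heterozygous one. Null cells were higher by 0.33 under DMSO (95% interval 0.21 to 0.45, limma adjusted p = 0.000185) and by 0.47 under THZ1 (0.34 to 0.59, adjusted p = 4.54e-06). The THZ1 response in null cells was 0.08 (-0.04 to 0.20, adjusted p = 0.199), but it passed with median-of-ratios scaling (0.32, adjusted p = 0.00015) and with upper-quartile scaling (0.21, adjusted p = 0.0226). The interaction of 0.14 (adjusted p = 0.148) likewise passed at 0.37 and 0.29 under these scalings (adjusted p = 0.00118 and 0.0339). In heterozygous cells the response was -0.06 (-0.18 to 0.07, adjusted p = 0.496). Tsc1 over Tsc2 stayed between 0.371 and 0.479 in all libraries.

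Ddit4 (gene ID 74747, chr10:59949675-59951770) encodes REDD1, a stress-induced protein that restrains mTORC1 through the TSC complex. It had 44.23 and 45.71 FPKM in null THZ1 libraries, 55.41 and 57.10 FPKM in null DMSO libraries, 57.05 and 57.09 FPKM in heterozygous THZ1 libraries, and 58.07 and 58.26 FPKM in heterozygous DMSO libraries. The null THZ1 libraries lay below the other 6, which spanned 55.41 to 58.26 FPKM. The response in null cells was -0.32 (95% interval -0.41 to -0.23, limma adjusted p = 1.43e-05), but it was -0.07 with median-of-ratios scaling and did not pass (adjusted p = 0.136). The interaction of -0.29 (adjusted p = 0.001) was -0.05 with median-of-ratios (adjusted p = 0.504) and -0.13 with upper-quartile scaling (adjusted p = 0.277). In heterozygous cells the response was -0.03 (-0.12 to 0.06, adjusted p = 0.675), and under DMSO the lines differed by -0.05 (-0.14 to 0.04, adjusted p = 0.32). Under THZ1 null cells were lower (-0.34, adjusted p = 5.46e-06), which did not pass with median-of-ratios (-0.03, adjusted p = 0.474) or upper-quartile scaling (-0.02, adjusted p = 0.757).

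Tsc2 and Mlst8 lie on chromosome 17 beside Pkd1 (chr17:24548689-24596514), the gene altered in these lines. The spans of Tsc2 and Pkd1 overlap by 699 bp, and reads from that stretch cannot be told apart without strand. Pkd1 was lower in null than in heterozygous DMSO cells (log2 -1.25 ± 0.10, limma adjusted p = 1.99e-07), while Tsc2 was higher. Mlst8 is 69574 bp away. Within 100 kb of Pkd1 the gene table holds 20 other genes, of which 15 were in the files and 10 were tested: E4f1, Pgp, Mlst8, Traf7, Tsc2, Nthl1, Slc9a3r2, Zfp598, Syngr3 and Gfer. Between null and heterozygous DMSO cells 5 of the 10 were higher (Traf7, Tsc2, Slc9a3r2, Zfp598 and Gfer) and 1 lower (Pgp), where 29% and 41% of all tested genes were. With THZ1 in null cells 1 was higher (Traf7) and 7 lower, where 24.6% and 51.1% of all tested genes were, with the largest falls in Mlst8 (-1.48), Pgp (-1.35), which encodes phosphoglycolate phosphatase, and Gfer (-0.90), which encodes a mitochondrial sulfhydryl oxidase. Pgp had 6.01 and 7.71 FPKM in null THZ1 libraries, against 18.21 and 19.64 FPKM in null DMSO libraries. With THZ1 in heterozygous cells Mlst8 was the 1 neighbour that passed, where 22.4% of all tested genes did. With 10 neighbours these counts are descriptions and nothing particular to the region was tested. The other 5 neighbours in the files (Bricd5, Caskin1, Rab26, Npw and Noxo1) were below the filter.

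**Figure D4:**
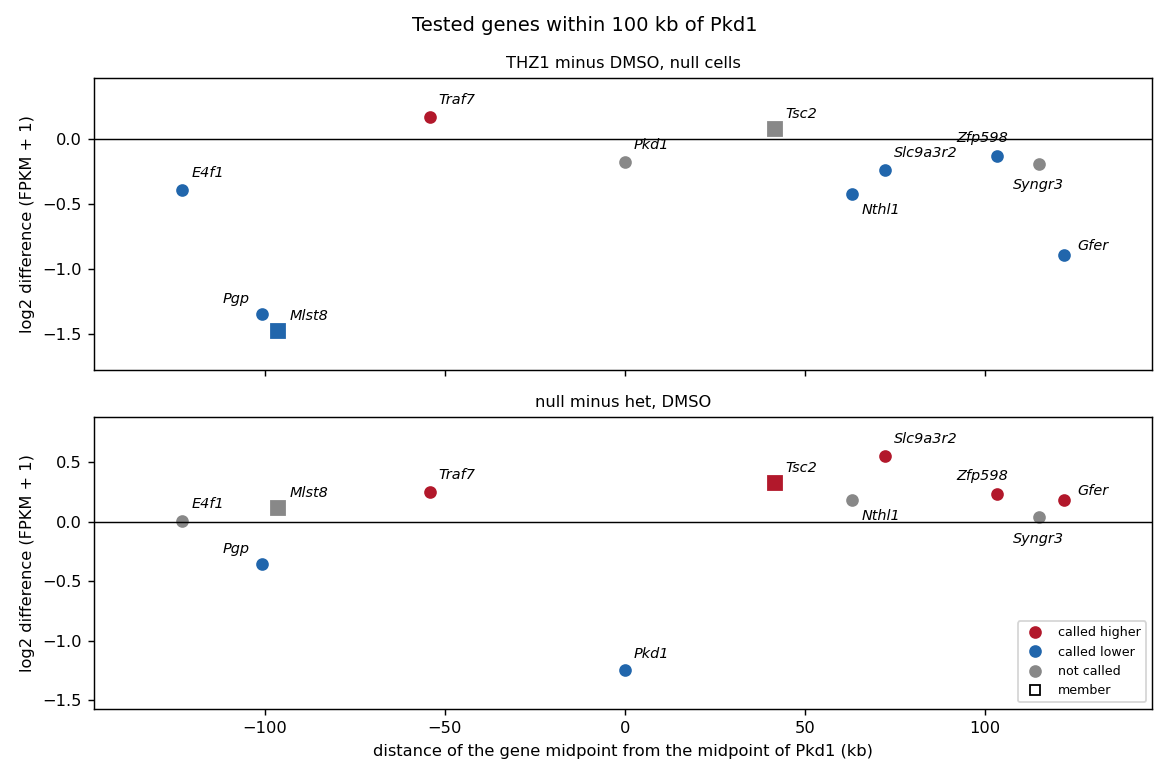
Difference in log2(FPKM + 1) of Pkd1 and the 10 tested genes within 100 kb of it, against the distance in kb between gene midpoints, for THZ1 minus DMSO in null cells (top) and null minus heterozygous cells under DMSO (bottom). Red was called higher, blue lower and grey not called, and squares are Mlst8 and Tsc2; in the top panel Mlst8 is at -1.48, Pgp at -1.35 and Tsc2 at 0.08.

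The wider pathway was read from 8 lists of known mTOR genes, with 88 tested memberships. With THZ1 in null cells 26 were higher and 43 lower, where 24.6% and 51.1% of all tested genes were. Median-of-ratios scaling turned that balance, to 43 higher and 25 lower, and upper-quartile scaling to 35 and 27. With THZ1 in heterozygous cells 17 were higher and 6 lower, where 12.2% and 10.3% of all tested genes were. There the counts were 4 and 7 with upper-quartile scaling and 9 and 10 with library totals. Between null and heterozygous DMSO cells 33 were higher and 34 lower, where 29% and 41% of all tested genes were, and the counts were 38 and 18 with upper-quartile and 37 and 25 with median-of-ratios scaling. The direction of these totals thus depends on the scaling. The lists overlap with processes outside mTOR, and their counts are descriptions.

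Other subunits and the factors that assemble the complexes had the lowest median of the lists with THZ1 in null cells, at -0.84. Of 8 genes 1 was higher and 7 lower (1 and 6 with median-of-ratios scaling), where 24.6% and 51.1% of all tested genes were. Tti1, part of the chaperone complex that folds mTOR and related kinases, averaged 5.90 ± 0.552 FPKM in null THZ1 cells, against 16.8 ± 0.113 in null DMSO cells (SD, n = 2 each; log2 -1.37 ± 0.06). Its partner Tti2 averaged 3.29 ± 0.163 against 8.75 ± 0.424 FPKM in the same groups (-1.19 ± 0.08). In heterozygous cells 2 of the 8 fell, Tti1 and Mapkap1 (each -0.27), where 10.3% of all tested genes were lower. Mapkap1 encodes the mTORC2 subunit mSIN1. Under DMSO 4 of the 8 were higher and 2 lower in null cells, where 29% and 41% of all tested genes were. The 2 with the largest difference were Prr5 (1.85) and Prr5l (1.15), which encode protor subunits of mTORC2. Prr5 averaged 4.09 ± 0.311 FPKM in null DMSO and 0.410 ± 0.0424 FPKM in heterozygous DMSO cells (SD, n = 2 each). It was below 1 FPKM in every heterozygous library and reached the filter only through null libraries, so its difference is a description.

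Genes of the amino acid branch were read beside the shares of all tested genes without scaling. Of these, 24.6% were higher and 51.1% lower with THZ1 in null cells. The shares were 12.2% and 10.3% with THZ1 in heterozygous cells, and 29% and 41% between the lines under DMSO. GATOR1, GATOR2 and KICSTOR are the complexes that relay amino acid supply to the Rag GTPases. Of 11 genes in them, 1 was higher and 8 lower with THZ1 in null cells (2 and 6 with median-of-ratios scaling). The median was -0.46 (-0.25 with that scaling), and the KICSTOR gene Itfg2 was among the lower (-1.20). In heterozygous cells 1 was higher (Sec13, 0.13) and 1 lower (Itfg2, -0.27). Under DMSO 2 were higher and 5 lower in null cells, with Itfg2 (-0.51) and the GATOR2 gene Seh1l (0.46) farthest from 0. With upper-quartile scaling 2 were higher and 3 lower, and with median-of-ratios scaling 2 and 4. Of 10 genes of the Rag GTPases and their lysosomal anchor Ragulator, 4 were higher and 5 lower with THZ1 in null cells (4 and 3 with median-of-ratios scaling), with the largest falls in the arginine transporter Slc38a9 (-0.88) and the anchor subunit Lamtor1 (-0.51). Under DMSO 4 were higher and 3 lower in null cells, and the GTPase genes Rragd and Rragb had the largest differences. Rragd averaged 0.260 FPKM in null DMSO against 2.59 ± 0.0212 FPKM in heterozygous DMSO cells (SD, n = 2; log2 -1.51 ± 0.09), and Rragb 0.345 ± 0.0495 against 2.82 ± 0.361 FPKM (-1.50 ± 0.11). Both genes were below 1 FPKM in every null library and reached the filter only through heterozygous libraries, so their differences are descriptions. At such levels the log2(FPKM + 1) scale understates ratios. With THZ1 in heterozygous cells 4 of the 10 were higher and 0 lower, with the anchor subunit genes Lamtor4 (0.30) and Lamtor3 (0.20) farthest from 0, but 1 and 0 with upper-quartile scaling and 2 and 1 with library totals. Of 9 genes on the list of sensors and their partners 4 were higher and 2 lower with THZ1 in null cells (7 and 1 with median-of-ratios scaling). On that list Castor2 averaged 2.36 ± 0.219 FPKM in null THZ1 cells, against 12.6 ± 0.389 FPKM in null DMSO cells (-2.02 ± 0.08). Bmt2, which encodes the methionine sensor SAMTOR, averaged 30.2 ± 0.0849 against 15.0 ± 1.05 FPKM in the same groups (0.96 ± 0.07). Castor2 also fell in heterozygous cells (-0.41), where 4 genes of the list were higher and 1 lower, Sesn1 (0.25) among the higher. That count was 0 higher and 2 lower with upper-quartile scaling and 1 and 2 with library totals. Under DMSO 5 of the 9 were higher in null cells and 0 lower, led by the folliculin partner gene Fnip2 (0.34) and the sestrin gene Sesn3 (0.32).

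Growth factor and energy genes upstream of mTOR were read in the same way. The shares of all tested genes were 24.6% higher and 51.1% lower with THZ1 in null cells. They were 12.2% and 10.3% with THZ1 in heterozygous cells, and 29% and 41% between the lines under DMSO. Of 15 tested insulin and PI3K genes 7 were higher and 3 lower with THZ1 in null cells (12 and 1 with median-of-ratios scaling). The adaptor gene Irs2 averaged 12.3 ± 0.375 FPKM in null THZ1 and 5.15 ± 0.346 FPKM in null DMSO cells (1.11 ± 0.07), while it had 11.1 ± 0.0707 FPKM in heterozygous DMSO cells. Irs1 fell (-0.40). Under DMSO 7 of the 15 were higher and 4 lower in null cells, with the largest differences in Irs2 (-0.98) and the PI3K regulatory subunit gene Pik3r1 (-0.66). In heterozygous cells 1 of them passed with THZ1, Pik3r3 (0.58). Of 9 LKB1 and AMPK genes 2 were higher and 4 lower with THZ1 in null cells (5 and 2 with median-of-ratios scaling), with the largest falls in the AMPK subunit gene Prkag2 (-1.02) and the LKB1 partner Strada (-0.81). Under DMSO 3 of the 9 were higher and 6 lower in null cells, with Prkag2 (0.72) and Prkab2 (0.64) farthest from 0, but 3 and 2 with upper-quartile scaling and 3 and 4 with median-of-ratios scaling. In heterozygous cells 2 rose with THZ1, the LKB1 gene Stk11 (0.20) and Prkag1 (0.18). With upper-quartile scaling Sec13, Lamtor3, Sesn1, Stk11 and Prkag1 did not pass in heterozygous cells (adjusted p = 0.11 to 0.344).

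Among 16 tested substrates and effectors 5 were higher and 9 lower with THZ1 in null cells, and 8 and 3 with median-of-ratios scaling. The list's median was 0.11 with that scaling and -0.13 without scaling. Of all tested genes 24.6% were higher and 51.1% lower there without scaling. The shares were 12.2% and 10.3% with THZ1 in heterozygous cells, and 29% and 41% between the lines under DMSO. Sgk1, which encodes a kinase that mTORC2 phosphorylates, averaged 7.22 ± 0.757 FPKM in null THZ1 and 2.21 ± 0.00707 FPKM in null DMSO cells (1.35 ± 0.10), and it also rose in heterozygous cells (0.54 ± 0.10). Rps6kb2, an S6 kinase gene, fell in null cells (-0.99). Under DMSO Ndrg1, whose protein is an SGK1 substrate, was higher in null cells, at 32.5 ± 0.0212 FPKM against 14.2 ± 0.212 FPKM in heterozygous cells (1.14 ± 0.05), and so was the lysosomal factor gene Tfeb (0.63). There 5 of the 16 were higher and 9 lower, but 6 and 3 with upper-quartile scaling. In heterozygous cells 5 rose with THZ1 and 0 fell (2 and 0 with upper-quartile scaling), and the autophagy kinase gene Ulk1 (0.35) came next after Sgk1. Of 10 known inducers and stress partners of Ddit4, 2 were higher and 5 lower with THZ1 in null cells (4 and 3 with median-of-ratios scaling, where the list's median was 0.06, and -0.17 without scaling). The stress factor gene Atf4 averaged 70.4 ± 0.636 FPKM in null THZ1 and 197 ± 5.35 FPKM in null DMSO cells (-1.47 ± 0.04), and its target Trib3 0.830 ± 0.0424 and 7.76 ± 0.778 FPKM (-2.26 ± 0.08). In heterozygous cells Atf4 also fell (-0.28), as did Ddit3 (-0.31), and 0 of the 10 rose. Under DMSO 3 were higher and 5 lower in null cells, with the hypoxia target Vegfa (1.69) and the stress factor gene Ddit3 (1.09) farthest from 0. Each gene said here to have risen or fallen passed at a limma adjusted p below 0.05.

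**Figure D5:**
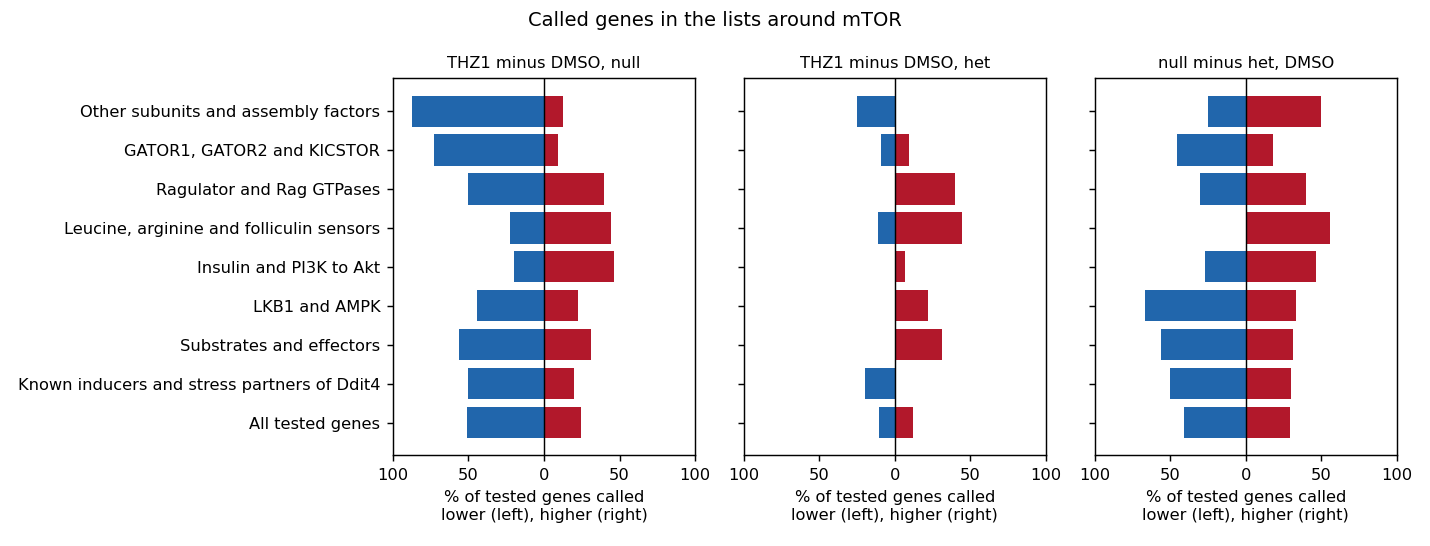
Percent of the tested genes of each of the 8 lists, and of all tested genes, called lower (blue, to the left) or higher (red, to the right) in 3 comparisons. With THZ1 in null cells 7 of the 8 other subunits and assembly factors were lower and 1 was higher, beside 51.1% and 24.6% of all tested genes.

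For the 3 members with the widest range of group means, the most similar genes were those with the smallest root mean square difference between centred log2(FPKM + 1) profiles over the 8 libraries, among 7599 genes. For Mlst8 they were Gys1 (0.0400), Rbm20 (0.0688) and Hmgxb4 (0.0867). Gys1, which encodes muscle glycogen synthase, had 4.62 and 4.43 FPKM in null THZ1 libraries, 15.11 and 15.91 in null DMSO, 11.26 and 10.38 in heterozygous THZ1, and 13.53 and 14.03 in heterozygous DMSO libraries. For Mtor they were Cul4a (0.0459), Zfp638 (0.0481) and Snx13 (0.0520), and for Rptor Lmnb1 (0.0271), Mipep (0.0310) and Eprs (0.0335). The profiles share their libraries, and the values are descriptions.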

How the data were processed

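The authors deposited 1 table per library with an FPKM value for each of 18631 Entrez gene IDs, rounded to 2 decimals. The submitters' processing notes name Bowtie2, DESeq2 and the mouse build mm10. The versions, the program behind the FPKM values, the annotation and the handling of strand were not given in the sources used here. Symbols, positions and promoters came from RefSeq tables of GRCm38.p6, which gave symbols for 18592 IDs.

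The fit used log2(FPKM + 1) with no scaling between libraries, so differences of low genes are understated. Genes with a mean of at least 1 FPKM over the 8 libraries were tested (10731). A model in limma (version 3.58.1, under R 4.3.3) held all libraries, with a mean for every group and a trended prior variance, leaving 4 residual degrees of freedom per gene. p-values are two-sided and were adjusted by Benjamini-Hochberg over all tested genes, with calls at an adjusted p below 0.05. Fragment numbers were estimated from the steps of low FPKM values and the shortest annotated transcript, and their errors cover counting only.

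The members and gene lists were chosen with earlier results of these data known. Named are all members, Pkd1, genes within 100 kb of it, the 2 called genes of each list with the largest difference in each of 3 comparisons (THZ1 against DMSO in each line, and the lines under DMSO), and the 3 genes most similar to each of the 3 members with the widest range (mean log2 value of at least 3). A gene that this rule would name is not reported here. Alternatives were other scalings, pseudocounts, filters, models and left-out libraries.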

Additional observations from a re-analysis of the deposited data

Results flagged for a closer look

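The THZ1 responses of null and heterozygous cells differed for 5 of the 9 tested members, by limma's test of the difference itself. The difference in response, null minus heterozygous on the log2 scale, was -1.17 for Mlst8 (adjusted p = 2.95e-06), -0.58 for Mtor (adjusted p = 0.000321), -0.383 for Akt1s1 (adjusted p = 0.00274), -0.29 for Ddit4 (adjusted p = 0.001) and 0.415 for Rictor (adjusted p = 0.00597). Of all tested genes 60.2% passed the same test. Deptor was below the filter. With no filter its difference was -0.40 (limma adjusted p = 0.0139, where 6116 of 17312 genes passed). The differences for Akt1s1 and Ddit4 did not pass with median-of-ratios or upper-quartile scaling, and those for Mlst8 and Mtor passed under each of the 18 alternatives run.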

How the results depend on the processing

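Of 846 values of single members under the alternatives, 786 kept their direction and their side of the threshold, 27 no longer passed, 10 newly passed and 23 changed sign. Filters, the limma trend, the replicate block and libraries left out of groups outside a comparison do not change a member's estimate. Such values could not change sign, so the tally overstates how stable the directions are. With median-of-ratios and upper-quartile scaling the sign changed for Ddit4 between the lines under DMSO (0.015 and 0.11), for the THZ1 response in null cells of Rptor (0.12 and 0.013) and Tsc1 (0.15 and 0.052), for the interaction of Rptor (0.19 and 0.12) and Tsc1 (0.15 and 0.070), and for Akt1s1 between the lines under THZ1 (0.078 and 0.087). Tsc1 in heterozygous cells turned to -0.019 with upper-quartile scaling and -0.035 with library totals, and Tsc2 in null cells to -0.0010 with library totals. With single libraries left out, values that spanned 0 were those of Rictor between the lines under DMSO (-0.016 to 0.18), the responses in heterozygous cells of Rictor (-0.14 to 0.049), Akt1s1 (-0.15 to 0.078) and Tsc1 (-0.094 to 0.10), and the interactions of Rptor (-0.077 to 0.012) and Tsc1 (-0.17 to 0.025). The signs turned without heterozygous DMSO replicate 1 or 2, heterozygous THZ1 replicate 1 or 2 or null DMSO replicate 2. Of the values that changed sign, that of Akt1s1 between the lines under THZ1 had passed without scaling. The causes were not tested.

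Between the lines under DMSO 8 members passed with upper-quartile scaling, where 6807 of all genes were called. With limma without its trend 3 members passed, where 7412 of all genes were called. With THZ1 in heterozygous cells 1 member passed with upper-quartile scaling, 1 without the filter and 1 to 2 with single libraries left out. Over all genes 1308, 1309 and 797 to 2534 were called there. The lowest counts came without heterozygous THZ1 replicate 1 (797), heterozygous THZ1 replicate 2 (1048) and heterozygous DMSO replicate 1 (1153). With single libraries left out, 6 members passed with THZ1 in null cells, 5 in the interaction and 9 between the lines under THZ1. With all libraries and no scaling, 75.7% of all tested genes passed with THZ1 in null cells, 60.2% in the interaction and 83.2% between the lines under THZ1. A group left with 1 library was assumed to vary like the others.

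Replicate numbers showed no clear pairing of the libraries: deviations of same-numbered libraries correlated at -0.09 to 0.14 over 6 pairs of groups. With 2 libraries per group these correlations cannot decide whether libraries were paired. With the replicate number as a block, members called were 6 for THZ1 in null cells, 2 in heterozygous cells, 5 in the interaction, 5 between the lines under DMSO and 9 under THZ1. In the same order, 8112, 2387, 6461, 7502 and 8920 of the 10731 tested genes were called.

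Groups of 2 libraries, 1 line per genotype, 1 dose and 1 time limit what these values show. Depth limits Deptor and, with THZ1 in null cells, Mlst8. Of the named genes of the lists, Rragd, Rragb, Prr5, Trib3, Slc38a9 and Irs1 also averaged below 1 FPKM in some groups. Their differences on the log2(FPKM + 1) scale understate ratios.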
